A study of Zea mays with 6 samples.

Results

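Mesocotyls of maize plants given GA3 were compared directly with mesocotyls of plants given UCZ, on the 2 GA3 and 2 UCZ arrays of a series of 6, and the 2 control arrays were not used. GA3 is a gibberellin, and UCZ is named in the study's design as a blocker of gibberellin synthesis. All plants were of the inbred line 3681-4, were sown 20 cm deep, were kept in the dark and were harvested 10 days after sowing. The sources used here give no doses, times of application or mesocotyl lengths, so the groups are called by their treatments and not by their growth. Whether an array stands for 1 plant or a pool is not given either. Arrays with the same replicate number were treated as a pair, and signals of a group are given for replicate 1 and then replicate 2.

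The mesocotyl is the stem segment of a grass seedling between the seed and the first node, and its elongation lifts the shoot through the soil. Gibberellins are bound by the receptor GID1, and the complex leads to the breakdown of DELLA proteins, which hold back growth genes. Cells that elongate loosen and rebuild their walls, reorganize cortical microtubules and take up water, and a seedling in the dark keeps its plastids as etioplasts, which do not photosynthesize.

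Of 17555 maize probe sets, the 10533 brightest were tested. They include the probe sets of 812 named genes, 424 of which belong to 41 lists put together by gene name. No gene that defines the mesocotyl is known to the analyst, so the labelled tissue could not be checked by a marker of its own. The median signal was 204 and 197 in GA3, and 191 and 185 in UCZ. As a sign of RNA integrity, the ratio of 3′ to 5′ actin signal was 4.64 and 3.40 in GA3, against 4.14 and 3.11 in UCZ. The poly-A controls, foreign transcripts spiked into the RNA ahead of labelling, differed between GA3 and UCZ by −0.623 (log2) in pair 1 and −1.003 in pair 2. Controls added at hybridization also differed, by −0.047 in pair 1 and −0.404 in pair 2. Scaling the arrays to the poly-A controls moved the median difference of all probe sets to 0.818, against 0.038 as deposited. That scaling made no use of the hybridization controls, and the part of RNA amount in the results was not tested. A first principal component with 55.3% of the variance separated GA3 from UCZ, and a second with 39.3% separated replicate 1 from replicate 2.

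GA3 and UCZ mesocotyls differed in 3954 of 10533 probe sets (37.5% called), at an adjusted p under 0.05 in a limma fit with the replicate pair as a block. Of these, 2181 (20.7% of those tested) were higher and 1773 (16.8%) were lower in GA3, so 55.2% of the calls were higher. The share of higher calls was 38.9% after median centring of the arrays and 99.6% after scaling to the poly-A controls. Without the block 1143 probe sets (10.9%) were called, 611 (5.8%) higher and 532 (5.05%) lower. The pair fit has 1 residual degree of freedom beside 21.8 from the prior, so its calls rest mainly on the spread shared across probe sets. On simulated data the prior of this fit was mostly estimated too high, and its calls mostly held more false ones than the threshold names. That prior is itself an estimate, which was 8.15 without a filter on signal, 4.81 without the block and infinite after poly-A scaling, and it sets the size of each adjusted p: for gst2, a transferase gene described below, it was 2.38e-12, and over the other settings it ran from 1.14e-66 with 1 added before log2 to 0.00249 without the block. Most differences were small, since the quartiles of all probe sets were −0.19 and 0.27 on the log2(signal + 16) scale, on which all differences below are given. The large ones were more often rises, with 260 called probe sets at least 2-fold higher in GA3 and 115 at least 2-fold lower. A difference of at least 2-fold in both pairs was seen for 192 probe sets higher (1.82%) and 80 lower (0.76%). By the same measure, 83 probe sets were higher and 8 lower in replicate 2 than in replicate 1 of both treatments. Across probe sets, which are not independent replicates, the differences of the pairs correlated at r = 0.819, and 77.9% had the same sign in both. GA3 and UCZ arrays did not overlap, in either direction, in 57.5% of the probe sets tested.

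**Figure D1:**
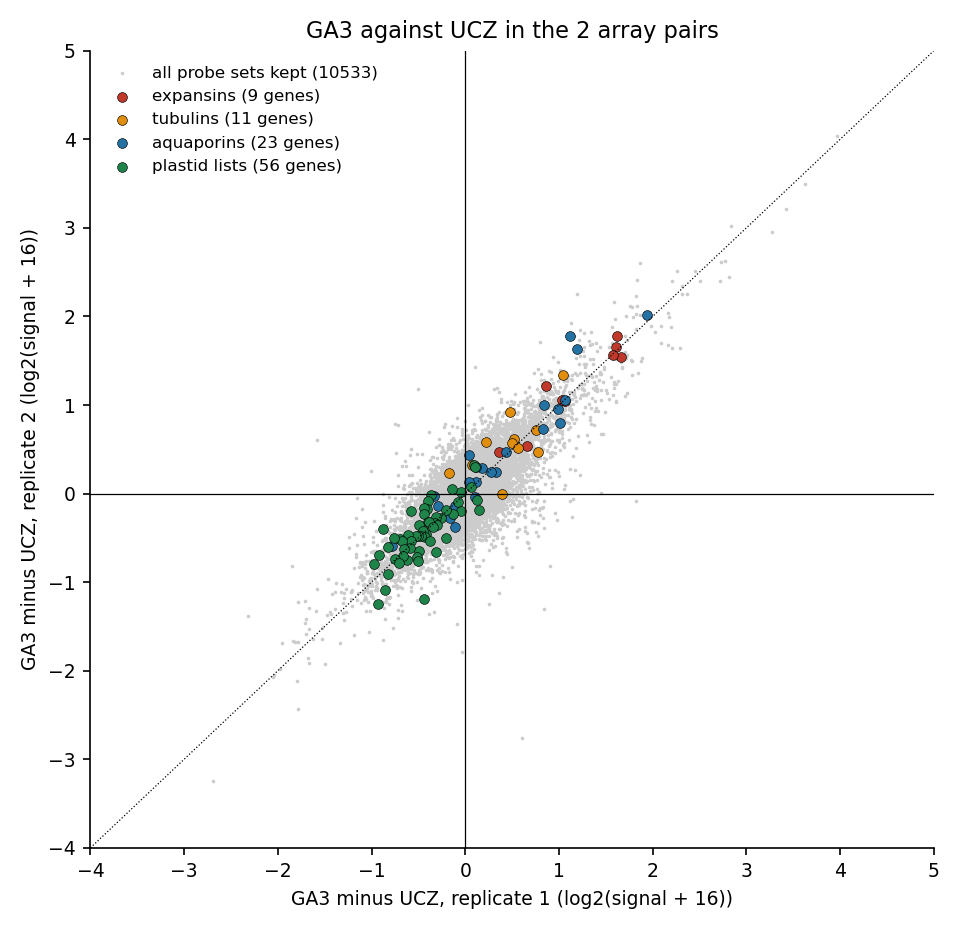
Difference between GA3 and UCZ on the log2(signal + 16) scale in the array pair of replicate 1 (x axis) and of replicate 2 (y axis), 1 point per probe set (grey) or per gene of a list (coloured), with a dotted line where both pairs are equal. All 9 expansins lie above 0 in both pairs, and 49 of 56 genes of the plastid lists lie below 0 in both, as deposited, while after poly-A scaling 6 of the 56 were below 0.

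Genes of the cell wall were called higher in GA3 or not called. In 4 wall lists 21 of 34 genes were higher and none was lower, where 24.0% of all named genes were called higher and 18.3% lower. Without the block the wall counts were 13 and 0, where 8.99% of named genes were called higher and 5.79% lower. Expansins, which loosen walls without cutting their polymers, were higher in all 9 members that passed the filter on low signal, of 12 on the array. Their median difference was 1.05, against 0.038 over all probe sets. These lists were drawn up with results of these data known, and a gene that passes the filter on low signal through 1 group only is more likely to differ.

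The β-expansin expB4 gave 3669 and 3652 in GA3, and 1193 and 1141 in UCZ, a difference of 1.64 ± 0.10 (SE, adjusted p = 7.14e-12). expB8 gave 3272 and 4162 in GA3, and 1086 and 1399 in UCZ, a difference of 1.57 ± 0.10 (adjusted p = 1.31e-11). The α-expansin expA3 was dimmer, with 417 and 374 in GA3, and 125 and 97.8 in UCZ, and differed by 1.70 ± 0.14 (adjusted p = 1.74e-09). In all of these the lowest GA3 array lay far above the highest UCZ array. expB6 differed by 1.60, and expa1 and expB3, at 0.60 and 0.42, had the smallest differences of the family. expA4 gave 181 and 368 in GA3, and 78.2 and 171 in UCZ. Its arrays differed more between replicates than most, and its call (1.05, adjusted p = 3.26e-06) was lost without the block (0.150), as was that of expB3 (0.0208 with and 0.146 without).

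Cellulose synthases did not move as 1 family. In the list of cellulose synthases and COBRA-like proteins 6 of 14 genes were higher and none lower, with a median of 0.16. cesa10 had 695 and 810 in GA3, and 367 and 300 in UCZ (1.14 ± 0.13, adjusted p = 2.28e-07), and cesa11 had 1290 and 1562 in GA3, and 724 and 651 in UCZ (1.03 ± 0.11, adjusted p = 1.87e-07). CesA12 followed with 0.86 and bk2, the COBRA-like gene brittle stalk2, with 0.74. In maize cesa10, cesa11 and CesA12 are known for the cellulose of secondary walls, and bk2 for the strength of mature stalks. The other synthases lay between −0.14 and 0.38. Among these CesA-1 and CesA-8 were called, at 0.38 and 0.36, and both lost the call without the block (adjusted p = 0.0998 and 0.121). The hydroxyproline-rich wall protein HRGP had 3392 and 4428 in GA3, and 1507 and 1988 in UCZ, a difference of 1.16 ± 0.09 (adjusted p = 1.99e-09). A second probe set of HRGP gave 1.21. UGlcAE, a UDP-glucuronate epimerase that supplies galacturonate for pectin, was 0.44 higher, and RGP, a reversibly glycosylated protein of polysaccharide synthesis, 0.33 higher. Neither was called without the block (adjusted p = 0.171 and 0.109). Of 5 phenylpropanoid genes, cncr2, a cinnamoyl-CoA reductase of lignin synthesis, rose by 0.89 and 4CL by 0.44, the second not without the block (adjusted p = 0.108), while PAL1, at its entry, differed by −0.13 and was not called.

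Of 22 genes for tubulins, kinesins and actin-binding proteins 14 (63.6%, against 24.0% of all named genes) were called higher and none lower. Without the block 7 were called, where the share of named genes was 8.99%. The β-tubulin TUBB2 had 1064 and 1198 in GA3, against 509 and 464 in UCZ, the largest tubulin difference at 1.19 ± 0.11 (adjusted p = 2.2e-08). tua6, an α-tubulin, had 4604 and 4085 in GA3, and 2723 and 2470 in UCZ (0.74 ± 0.09, adjusted p = 1.23e-06). The groups did not overlap in either gene, which held for 57.5% of all probe sets tested. In all, 8 of 11 tubulins were higher, with a median of 0.54, and tua4, the brightest, with 6944 and 8108 in GA3 and 7838 and 6927 in UCZ, overlapped between the treatments. Among motor proteins the kinesins KIN6 and KIN9 were 0.83 and 0.72 higher, and the myosin myo1 was 0.85 higher. KIN9 was not called without the block (adjusted p = 0.0599).

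**Figure D2:**
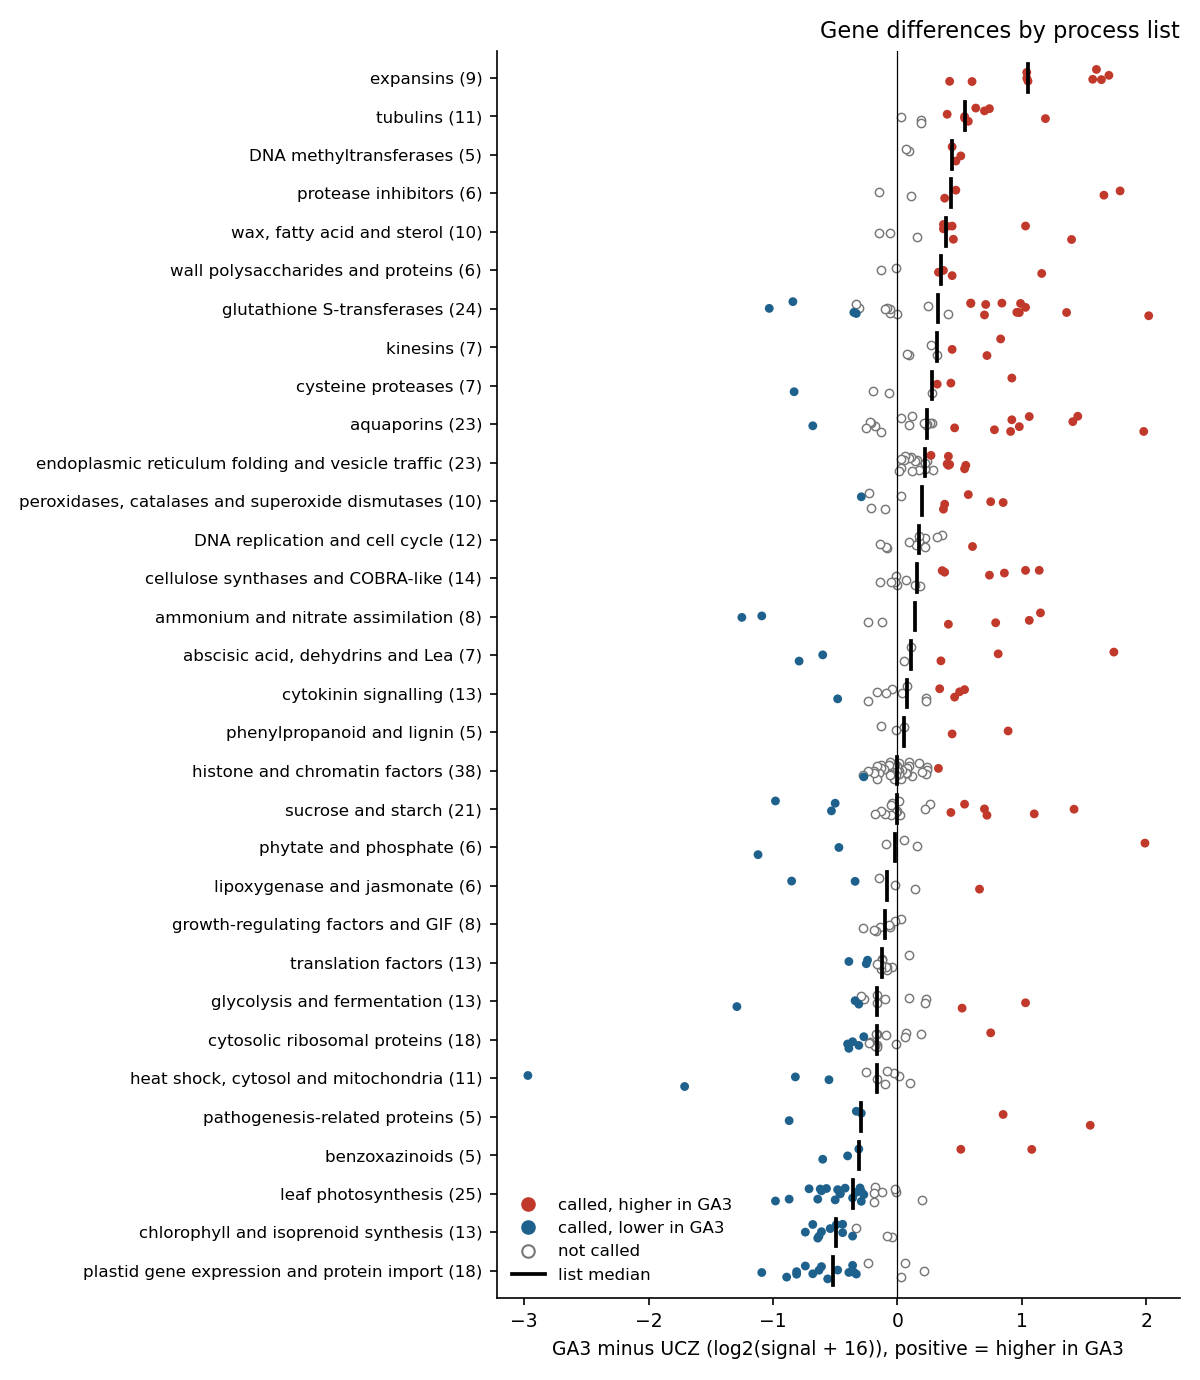
Difference between GA3 and UCZ (x axis, log2(signal + 16), positive where GA3 is higher) of each gene in the process lists with at least 5 genes past the filter, the number in brackets, ordered by median. Filled points were called in the fit with the replicate block. Lists run from expansins, with all 9 genes higher, to plastid gene expression and protein import, with 14 of 18 lower as deposited. After poly-A scaling 0 of these 18 were lower, where 30 of all 10533 probe sets were called lower.

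In 3 lists of the cell cycle and of chromatin 5 of 55 genes (9.09%) were called higher and 1 (1.82%) lower, against 24.0% and 18.3% of all named genes. Of 12 genes of DNA replication and the cell cycle only pcna1, the sliding clamp of DNA polymerase, was called, with 753 and 797 in GA3, and 504 and 511 in UCZ (0.60 ± 0.11, adjusted p = 0.000203). The kinase gene cdc2 differed by 0.22 (adjusted p = 0.109) and the cyclin cyc3 by 0.36 (0.0658), and neither passed the threshold. Of 38 genes for histones and chromatin factors 1 was higher (Hda1, 0.33) and 1 lower (mbd111, −0.27, which turned to 0.53 after poly-A scaling). Both calls were lost without the block (adjusted p = 0.165 and 0.209), and that of Hda1 also after median centring (0.0804). None of 8 growth-regulating factors and their partners was called by limma, with or without the block. With the block 0 of the 8 had an unadjusted p under 0.05, against 46.3% of all probe sets tested. These 8 genes lay between −0.28 and 0.03. Of 5 DNA methyltransferases 3 were higher, dmt101, met2 and met5, by 0.51, 0.47 and 0.44, none of them called without the block (adjusted p from 0.0671 to 0.172). Of 3 probe sets of met5 the lowest, at 0.31, was not called (adjusted p = 0.104).

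Aquaporins, channels for water and small solutes, ranged widely within the family. Of 23 genes 9 (39.1%) were higher and 1 (4.35%) was lower, against 24.0% and 18.3% of all named genes. pip2f, of the plasma membrane, had 832 and 1014 in GA3, and 206 and 237 in UCZ, a difference of 1.98 ± 0.12 (adjusted p = 9.43e-12). tip2a, of the tonoplast, had 6888 and 8150 in GA3, and 3168 and 2362 in UCZ (1.45 ± 0.11, adjusted p = 1.13e-09), and tip2b differed by 1.41. These 3 channels did not overlap between treatments, which held for 57.5% of all probe sets tested. pip1e, pip2c and pip2b were 1.06, 0.91 and 0.78 higher, and for pip2c a second probe set gave 0.31. The silicon transporter gene Lsi6 had 553 and 358 in GA3, and 303 and 172 in UCZ, and its rise of 0.92 was not called without the block (adjusted p = 0.104). PIP2-1 and pip1-2, bright members of the plasma membrane, were at 0.12 and −0.21, and neither was called. PIP1-3 was called higher on each of its probe sets, from 0.43 to 0.61. tip4d was lower, with 98.2 and 86.1 in GA3, and 180 and 137 in UCZ. Its difference of −0.68 was not called without the block (adjusted p = 0.0689) and became 0.04 after poly-A scaling. Of 4 proton pump genes the vacuolar pyrophosphatase vpp1 was higher, by 0.58, and the plasma-membrane pumps mha1 and mha4 differed by −0.35 and 0.13 without a call.

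**Figure D3:**
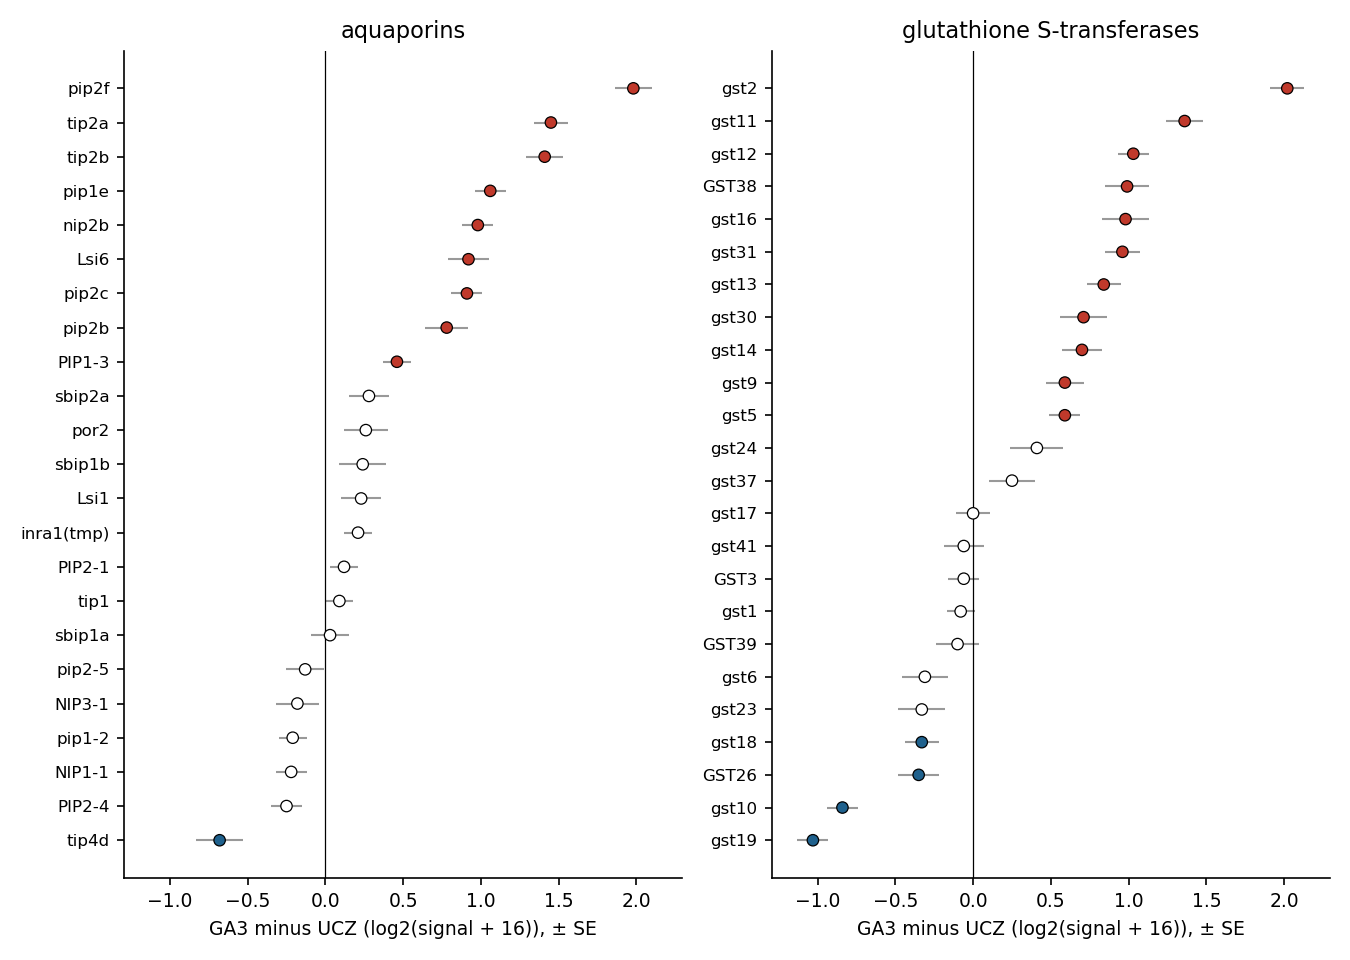
Difference between GA3 and UCZ on the log2(signal + 16) scale with its standard error for the 23 aquaporin genes (left) and the 24 glutathione S-transferase genes (right) past the filter, coloured where called (red higher, blue lower in GA3, white not called). In both families the largest rise is near 2, and 1 aquaporin and 4 transferases were called lower in GA3. After poly-A scaling none of these genes was called lower, where 30 of all 10533 probe sets were.

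Of 23 genes of protein folding in the endoplasmic reticulum and of vesicle traffic 7 (30.4%, against 24.0% of all named genes) were called higher in GA3 and none lower. None of the 7 was called without the block. The mean difference of the pairs was above 0 in all 23, with a median of 0.22 and a highest value of 0.55, and 18 were above 0 in both pairs. After median centring the median was 0.13. The chaperone gene bip1 had 1732 and 1472 in GA3, and 1310 and 1118 in UCZ (0.40 ± 0.10, adjusted p = 0.0034), the disulfide isomerase gene pdi10 was 0.55 higher, and copz2, of the COPI vesicle coat, 0.54 higher.

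Of 11 heat shock genes of the cytosol and mitochondria 4 (36.4%, against 18.3% of all named genes) were lower in GA3 and none higher. Without the block 2 were called lower, where 5.79% of named genes were. After poly-A scaling 2 were lower and 5 higher, where 30 of all 10533 probe sets were called lower and 7452 higher. hsp18 had 191 and 91.2 in GA3, against 1318 and 1003 in UCZ, the largest fall of any named gene, at −2.97 ± 0.14 (adjusted p = 5.77e-14), and it stayed lower after poly-A scaling at −2.21. hsp18f had 161 and 83.2 in GA3, and 483 and 361 in UCZ (−1.71 ± 0.14, adjusted p = 2.79e-09; −0.97 after poly-A scaling). Both are small heat shock proteins, which bind unfolded proteins. hsp101, of the disaggregase family, had 257 and 422 in GA3, and 608 and 586 in UCZ, a difference of −0.82 that was not called without the block (adjusted p = 0.0683) and that was −0.04 after poly-A scaling. The constitutive hsp70-4 and hsp70-5 differed by −0.08 and −0.16 and were not called, though 1 of 3 probe sets of hsp70-5 was, at −0.26.

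Of 31 genes for cytosolic ribosomal proteins and translation factors 8 (25.8%) were lower and 1 (3.23%) was higher, against 18.3% and 24.0% of all named genes, and none of them was called without the block. After poly-A scaling 16 of the 31 were higher and none lower, where 7452 of all 10533 probe sets were called higher and 30 lower. The higher one was RPS21, with 1127 and 1699 in GA3, and 723 and 921 in UCZ (0.75 ± 0.11). Falls were small, down to −0.40 for RPL19 and −0.39 for rpp2a-3 and tif1, and after poly-A scaling all 3 were above 0, at 0.41, 0.41 and 0.42.

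Plastid genes gave more falls in GA3 than any other group of lists, as deposited. Of 56 genes in 3 lists 42 were lower in GA3 and none was higher, where 18.3% of all named genes were called lower, and 49 were below 0 in both pairs. Without the block 17 were called lower and none higher, where 5.79% of named genes were. After scaling to the poly-A controls the direction turned, with 9 of the 56 higher and none lower. Their median was then 0.35, still under the 0.818 of all probe sets. Over all 10533 probe sets, 7452 were called higher and 30 lower after that scaling. After quantile normalization 38 were lower, and after median centring 46, where 1965 and 2491 of all 10533 probe sets were called lower.

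Genes for plastid gene expression and protein import had the lowest median of the lists with at least 5 genes, −0.52 (0.24 after poly-A scaling). Of 18 genes 14 (77.8%, against 18.3% of all named genes) were lower, and 0 of 18 after poly-A scaling. Without the block 6 were called lower, where 5.79% of named genes were. lem1, which encodes a ribosomal protein of plastids, had 2747 and 3337 in GA3, and 5394 and 5830 in UCZ (−0.89 ± 0.09, adjusted p = 1.01e-07; −0.08 after poly-A scaling). prpl35-1, another plastid ribosomal protein gene, had 1971 and 1469 in GA3, and 3783 and 3507 in UCZ (−1.09 ± 0.10, adjusted p = 1.28e-08; −0.28 after poly-A scaling). On both UCZ arrays these genes were brighter than on either GA3 array, where 57.5% of all probe sets tested did not overlap in one direction or the other. sig2A and sig2B, sigma factors that guide the plastid RNA polymerase to promoters, were at −0.81 and −0.74, while sig1 and sig6 were at 0.03 and 0.21 and not called. sig2B was not called without the block (adjusted p = 0.0636). After poly-A scaling sig2A was at 0.00 and sig2B at 0.03. toc34 and toc34B, receptors of the import channel in the outer envelope, differed by −0.56 and −0.61, and tha4, hcf106 and csy1, of the thylakoid translocation routes, by −0.68, −0.33 and −0.63. All 5 were above 0 after poly-A scaling, from 0.12 for tha4 to 0.46 for hcf106, and csy1 and hcf106 were not called without the block (adjusted p = 0.0587 and 0.186). The splicing factors caf2, CAF1 and rnc1 lay between −0.48 and −0.35, called with the block and not without it, and between 0.24 and 0.43 after poly-A scaling.

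The list of chlorophyll and isoprenoid synthesis held 10 lower genes of 13 (76.9%, against 18.3% of all named genes). All 13 were below 0 (median −0.49, and 0.32 after poly-A scaling). Without the block 5 were called lower, where 5.79% of named genes were. oy1, a subunit of the magnesium chelatase that opens the chlorophyll branch, had 1976 and 2202 in GA3, and 3337 and 3681 in UCZ (−0.74 ± 0.09, adjusted p = 1.35e-06; 0.06 after poly-A scaling). por, the protochlorophyllide reductase whose substrate waits in etioplasts for light, had 2620 and 2811 in GA3, and 4135 and 4572 in UCZ (−0.68 ± 0.09, adjusted p = 4.01e-06; 0.13 after poly-A scaling). Neither overlapped between the treatments, a trait of 57.5% of all probe sets tested. The same held for dxr and Hds1, of the plastid pathway that makes isoprenoid precursors, at −0.54 and −0.63 (0.26 and 0.16 after poly-A scaling). That pathway also feeds carotenoids and gibberellins. pds1, the phytoene desaturase of carotenoid synthesis, and crtRB1, a carotene hydroxylase, were at −0.44 and −0.49, not called without the block (adjusted p = 0.0723 and 0.062), and at 0.36 and 0.32 after poly-A scaling.

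Of 25 genes of leaf photosynthesis 18 (72.0%, against 18.3% of all named genes) were lower and none higher (median −0.36, and 0.45 after poly-A scaling). Without the block 6 were called lower, where 5.79% of named genes were. The genes of this list were bright in both treatments. Cab-m7, a chlorophyll a/b binding protein, had 9207 and 10930 in GA3, and 12510 and 12180 in UCZ. L-FNRII, a leaf ferredoxin-NADP reductase, had 1567 and 1335 in GA3, against 2861 and 2859 in UCZ, the largest difference of the list at −0.98 ± 0.10 (adjusted p = 6.15e-08; −0.17 after poly-A scaling). bsd2, a chaperone of Rubisco assembly, had 1517 and 1902 in GA3, and 2694 and 3585 in UCZ (−0.87 ± 0.10, adjusted p = 2.06e-07; −0.06 after poly-A scaling). Both were separate between the treatments, as were 57.5% of all probe sets tested. Of the C4 cycle, mdh6, pep1 and pdk1 were at −0.71, −0.62 and −0.42 (0.10, 0.19 and 0.38 after poly-A scaling), and pdk1 was at −0.35 or below on all 4 of its probe sets, but its call was lost without the block (adjusted p = 0.0627). The malic enzyme gene me3 went the other way, with 793 and 878 in GA3, and 740 and 710 in UCZ. It was the 1 gene of the list above 0, at 0.2, and was not called. The signals of the 25 genes summed to 84800 and 90610 in GA3, against 112300 and 118400 in UCZ. The list serves here as the marker of leaf tissue too, none of its genes was below a signal of 64, and the part of leaf tissue in the plastid differences was not tested. In whole organs fewer cells of a type and less RNA per cell cannot be told apart. glk1, a GOLDEN2-like regulator of chloroplast genes, is in no list and was picked after its values were seen. It had 132 and 168 in GA3, and 305 and 339 in UCZ (−1.03 ± 0.14, adjusted p = 2.62e-06; −0.27 after poly-A scaling).

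**Figure D4:**
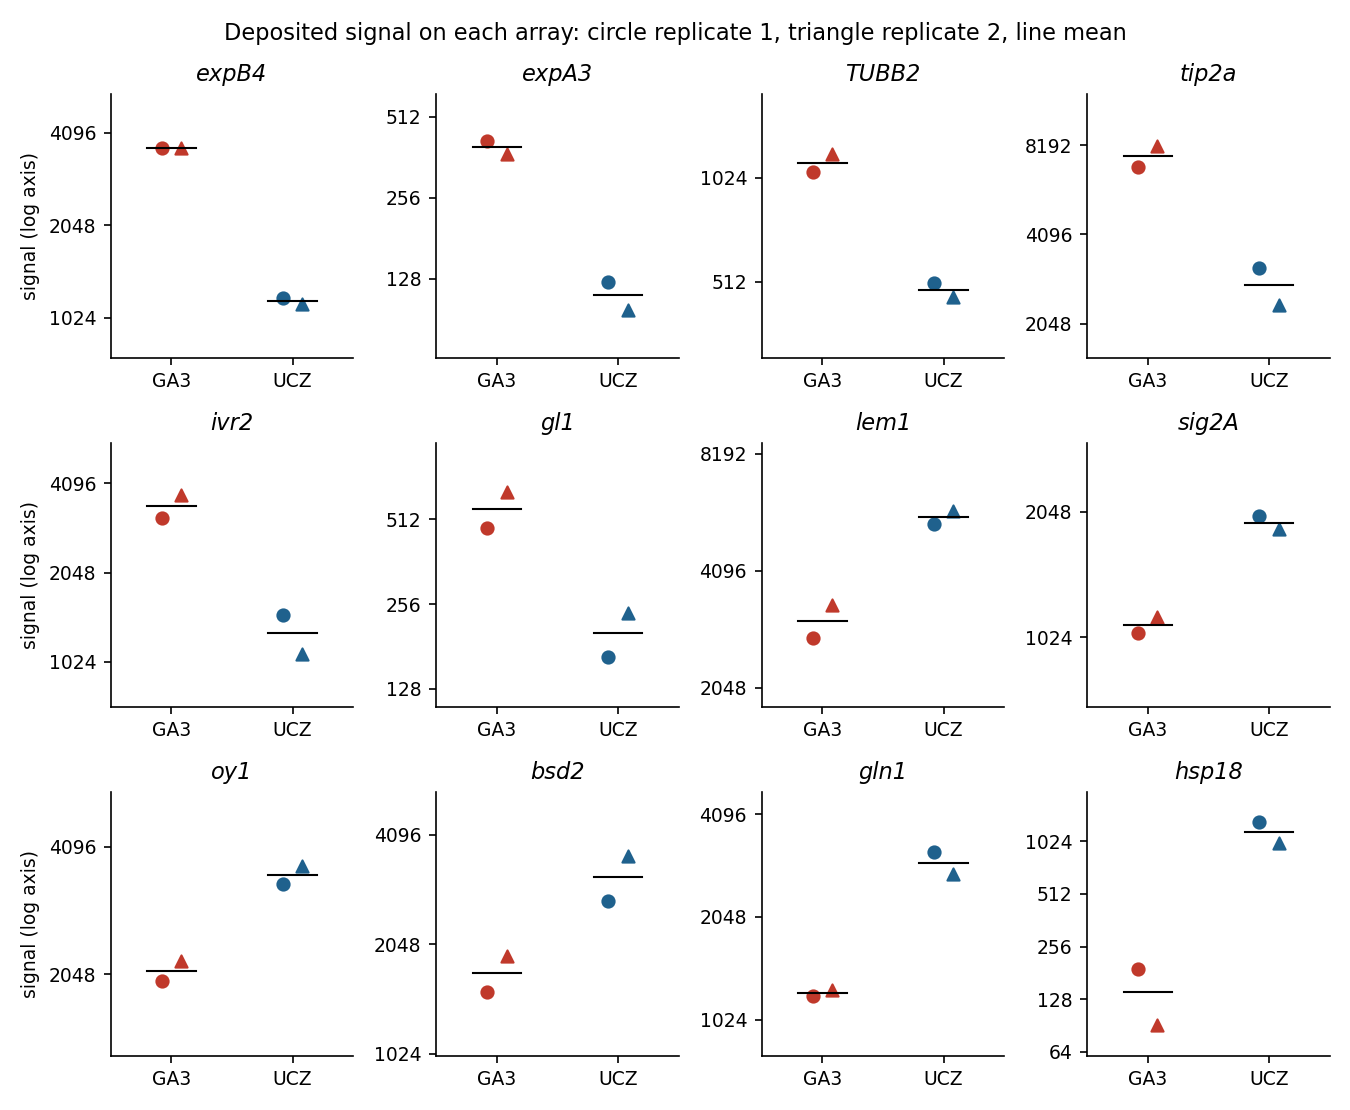
Deposited signal (y axis, log scale, different in each panel) of 12 genes on the GA3 and UCZ arrays, with a circle for replicate 1, a triangle for replicate 2 and a line at the mean of the 2 arrays. The first 6 genes are higher on both GA3 arrays and the last 6 higher on both UCZ arrays; after poly-A scaling oy1 alone of the last 6 turned to higher in GA3, at 0.06.

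Glutathione S-transferases, which join glutathione to reactive or foreign compounds, changed in both directions, with 11 of 24 (45.8%) higher and 4 (16.7%) lower, against 24.0% and 18.3% of all named genes. Without the block 7 were higher and 2 lower, where 8.99% of named genes were called higher and 5.79% lower. gst2 had 2333 and 2354 in GA3, against 649 and 490 in UCZ, the largest rise of any gene with a name other than a LOC number, at 2.02 ± 0.11 (adjusted p = 2.38e-12). gst19 had 1249 and 969 in GA3, and 2451 and 2083 in UCZ (−1.03 ± 0.10, adjusted p = 3.06e-08; −0.22 after poly-A scaling). The 4 probe sets of gst31 ran from 0.83 to 0.96. gst1, the brightest of the family, did not pass the threshold, at −0.08 with 8842 and 10140 in GA3, and 10230 and 9745 in UCZ. Among other redox enzymes the peroxidase gene pox1 was 0.85 higher, and the superoxide dismutase gene sod2 was at −0.29, not called without the block (adjusted p = 0.188) and at 0.52 after poly-A scaling.

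Ammonium metabolism separated enzyme by enzyme. gln1 and GLN6, both glutamine synthetases, were lower in GA3. gln1 had 1204 and 1254 in GA3, and 3182 and 2728 in UCZ (−1.25 ± 0.10, adjusted p = 1.67e-09; −0.44 after poly-A scaling), and GLN6 was at −1.09 (−0.29 after poly-A scaling). gdh1, a glutamate dehydrogenase, had 823 and 759 in GA3, and 383 and 315 in UCZ (1.15 ± 0.12, adjusted p = 5.75e-08), and asn1, an asparagine synthetase, had 2853 and 2888 in GA3, and 1440 and 1295 in UCZ (1.06 ± 0.10, adjusted p = 1.39e-08). On these probe sets none of the 4 overlapped between treatments, which held for 57.5% of all probe sets tested. A second, dimmer probe set of asn1 did not go with the first, at −0.13 (adjusted p = 0.54). The other glutamine synthetase genes measured, Gln1-4 and gln3, differed by −0.12 and −0.24 and were not called.

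Of 21 genes of sucrose and starch metabolism 6 (28.6%) were higher and 3 (14.3%) lower in GA3, shares near the 24.0% and 18.3% of all named genes. ivr2, an invertase of the vacuole, had 3128 and 3752 in GA3, and 1478 and 1085 in UCZ (1.42 ± 0.12, adjusted p = 3.56e-09). AGA3b, an alkaline α-galactosidase, was 1.10 higher, AGA2 0.72 higher (not without the block, adjusted p = 0.118), the sucrose transporter gene sut1 0.70 higher, and frk1, a fructokinase, and sh1, a sucrose synthase, 0.54 and 0.43 higher, the last 2 not without the block (adjusted p = 0.0519 and 0.0897). incw1, an invertase of the cell wall, was at −0.53, not called without the block (adjusted p = 0.0922) and 0.24 after poly-A scaling. AGP2 had 301 and 284 in GA3, and 676 and 519 in UCZ (−0.98 ± 0.12, adjusted p = 1.35e-06; −0.20 after poly-A scaling). GLG1, the third lower gene, was at −0.50 (0.30 after poly-A scaling) and was not called without the block (adjusted p = 0.0644). Within glycolysis the genes of 1 enzyme differed in direction. gpc4 and gpc3, both cytosolic glyceraldehyde phosphate dehydrogenases, were 1.03 and 0.52 higher, and gpc1 was at −0.31 (0.50 after poly-A scaling). aldh2, an aldehyde dehydrogenase, had 152 and 150 in GA3, and 324 and 472 in UCZ (−1.29 ± 0.15, adjusted p = 2.38e-07; −0.53 after poly-A scaling). gpc3 and gpc1 were not called without the block (adjusted p = 0.0751 and 0.109).

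The phytate pathway held 2 of the extreme genes in opposite directions. phytase1, which releases phosphate from phytate, had 1089 and 1072 in GA3, and 244 and 278 in UCZ (1.99 ± 0.12, adjusted p = 6.87e-12). lpa1 (INO1), a myo-inositol phosphate synthase at the start of phytate synthesis, had 239 and 283 in GA3, and 514 and 667 in UCZ (−1.12 ± 0.12, adjusted p = 1.67e-07; −0.34 after poly-A scaling). The treatments did not overlap in either gene, which held for 57.5% of all probe sets tested. lpa2, an inositol phosphate kinase of the same pathway, was at −0.47, not without the block (adjusted p = 0.215) and 0.27 after poly-A scaling.

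Lipid genes of the surface and of sterols were higher in 7 of 10 cases (70.0%, against 24.0% of all named genes). Without the block 2 were called higher, where 8.99% of named genes were. gl1, of cuticular wax synthesis, had 478 and 641 in GA3, and 166 and 238 in UCZ (1.40 ± 0.13, adjusted p = 8.89e-09). fps1, the farnesyl diphosphate synthase ahead of sterols, had 780 and 767 in GA3, and 365 and 377 in UCZ (1.03 ± 0.12, adjusted p = 2.38e-07). The sterol methyltransferase gene smt1 was 0.45 higher, not without the block (adjusted p = 0.0709). fps1 belongs to the cytosolic branch of isoprenoid synthesis, apart from the plastid branch above.

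Defence genes changed in both directions, with 11 of 23 (47.8%) higher and 7 (30.4%) lower in 4 lists, against 24.0% and 18.3% of all named genes. Without the block 6 were higher and 3 lower, where 8.99% of named genes were called higher and 5.79% lower. Protease inhibitors were higher in 4 of 6 genes, 2 of them without the block. wip1, a wound-induced inhibitor, had 4684 and 4490 in GA3, and 1493 and 1393 in UCZ (1.66 ± 0.10, adjusted p = 4.08e-12), and piip1 had 2648 and 3090 in GA3, and 861 and 776 in UCZ (1.79 ± 0.11, adjusted p = 8.29e-12), though 1 of the 4 probe sets of piip1 gave 0.28. rip2, a ribosome-inactivating protein, was 1.55 higher, and pr5, a thaumatin-like protein, was at −0.87 (−0.09 after poly-A scaling). The cysteine protease gene mir2 was 0.92 higher and see2b, a legumain of senescence, was at −0.83 (−0.03 after poly-A scaling). In benzoxazinoid synthesis, which starts from indole glycerol phosphate, igl1, an indole synthase of defence volatiles, was 1.08 higher, and bx1, the indole synthase of the pathway itself, had 2138 and 2466 in GA3, and 3340 and 3636 in UCZ (−0.60 ± 0.09, adjusted p = 2.46e-05; 0.21 after poly-A scaling).

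Hormone genes gave few values for gibberellin itself. Of 5 gibberellin genes on the array only an1, the ent-copalyl diphosphate synthase of the first committed step, passed the filter. It had 459 and 500 in GA3, and 360 and 379 in UCZ, a difference of 0.36 ± 0.12 (adjusted p = 0.022). That call was lost without the block (adjusted p = 0.163) and after median centring, at 0.27. Ethylene genes for ACC oxidase, the last step of ethylene synthesis, were higher, with ACO31 at 754 and 886 in GA3, and 429 and 419 in UCZ (0.92 ± 0.12, adjusted p = 1.29e-06), and acco20 at 0.63, not without the block (adjusted p = 0.318). ERF1, in the same list, was lower at −0.48, not without the block (adjusted p = 0.119) and at 0.28 after poly-A scaling. AO1 and AO2, aldehyde oxidases, were at −0.60 and −0.79, neither called without the block (adjusted p = 0.0751 and 0.0512), and at 0.14 and −0.06 after poly-A scaling. The Lea protein gene mlg3 had 360 and 260 in GA3, and 99.7 and 64.6 in UCZ (1.74 ± 0.15, adjusted p = 2.7e-09), and the dehydrin dhn1 was 0.81 higher. Of the lipoxygenases lox1 was 0.66 higher and lox3 had 389 and 383 in GA3, and 704 and 711 in UCZ (−0.85 ± 0.12, adjusted p = 3.64e-06; −0.06 after poly-A scaling). The response regulators RR6, RR10, RR8 and crr1 of cytokinin signalling were 0.34 to 0.54 higher, and ciszog1, in the same list, was lower at −0.48 (0.30 after poly-A scaling). None of these 5 was called without the block.

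Some genes outside the lists were among the larger differences and were picked after their values were seen. mpao1, a polyamine oxidase, was 1.36 higher in GA3, and the YABBY gene yab15 and the homeobox gene kn1, knotted1, were 1.06 and 0.80 higher. Among the 10 largest falls by rule, x34.3 had 234 and 349 in GA3, and 881 and 630 in UCZ (−1.33), and m21 had 388 and 314 in GA3, and 783 and 732 in UCZ (−1.08). After poly-A scaling these 2 were at −0.55 and −0.29.

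Markers of kernel and reproductive tissues were mostly dim. Of 20 kernel genes 16 were below a signal of 64 on each array, and their signals summed to 1574 and 1509 in GA3, and 1850 and 1849 in UCZ. No kernel gene was at exactly 0, and most of the sum came from meg6, with 961 and 957 in GA3, and 1042 and 1124 in UCZ. betl4, of the basal transfer layer of the endosperm, was the kernel gene that differed, with 79.4 and 88.8 in GA3, and 293 and 265 in UCZ (−1.56 ± 0.15, adjusted p = 2.2e-08; −0.82 after poly-A scaling). Of 7 reproductive genes 5 or 6 were below 64 on each array, and their sums were 591 and 502 in GA3, and 476 and 514 in UCZ. Of the 2 that passed the filter, M2 was 1.23 higher in GA3 and m19 was lower, at −0.37. The signals of m19 were 320 and 254 in GA3, and 362 and 386 in UCZ. m19 was not called lower without the block or after poly-A scaling. Of 2 root genes 1 was below 64 on each array. The other, pht1, had 788 and 675 in GA3, and 768 and 792 in UCZ, and was not called.

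The largest rises of all belonged to probe sets without a gene name here. The first had 1108 and 1283 in GA3, and 56.1 and 62.9 in UCZ (4.00 ± 0.13, adjusted p = 4.69e-16), about 16-fold and with both UCZ arrays below a signal of 64. The next had 988 and 1046 in GA3, and 65.2 and 78.3 in UCZ (3.56 ± 0.13, adjusted p = 2.2e-15). In the other direction the 2 unnamed probe sets with the largest falls were at −2.11 (−1.35 after poly-A scaling) and −2.06 (−1.32 after poly-A scaling). Unnamed probe sets were called in 37.0% of 9571 cases and named ones in 42.9% of 961.

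**Figure D5:**
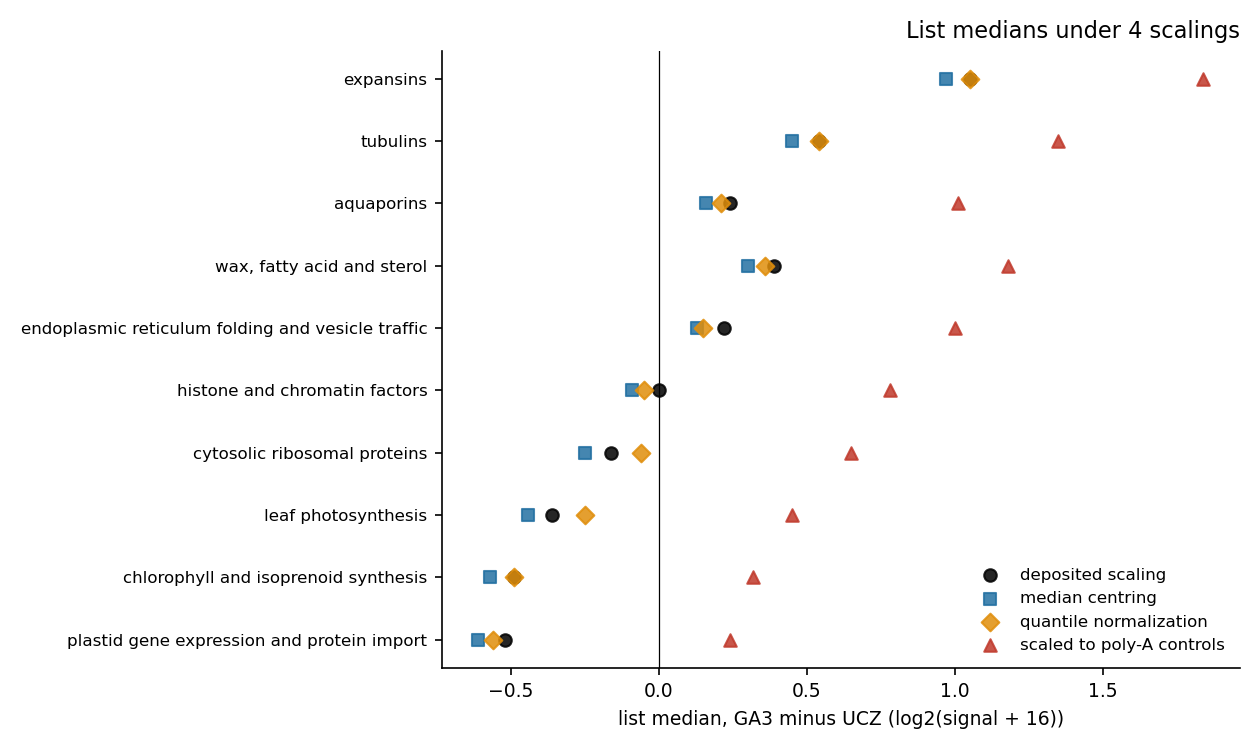
Median difference between GA3 and UCZ (x axis, log2(signal + 16)) of 10 lists as deposited and after 3 other scalings of the arrays. Expansins stay highest and the plastid lists lowest under all 4, but after scaling to the poly-A controls every median is above 0, from 0.24 to 1.84, and the median of all probe sets is 0.818.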

How the data were processed

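Total RNA of mesocotyls was labelled with biotin and hybridized to Affymetrix maize arrays, 1 per sample. The deposited values are signal intensities on a linear scale, 1 per probe set and array, made by the authors with GCOS and MAS5 per the submitters' processing notes, with no version given. Each array's mean, after leaving out 2% of probe sets at each end, was about 500, so the intensities carry a common scaling.

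Of 17734 probe sets, 113 manufacturer's controls and 66 reporters were left out. Signals became log2(signal + 16), which understates changes of dim genes, and the brightest 60% of probe sets by mean over the 4 arrays were kept (lowest mean 6.94). GA3 minus UCZ was tested two-sided with limma 3.58.1 under R 4.3.3 (lmFit, then eBayes with a trend, with replicate number as a block), with Benjamini-Hochberg adjustment over all probe sets kept and a threshold of 0.05. SE is that of the fit. The 2 arrays of a group limit the precision, and nothing says from how many plants each came. With the block, p-values rest on the gap between the 2 pair differences, moderated by the spread shared across probe sets. They do not measure a spread between plants. The design text names independent experiments, and same-numbered arrays deviated together (r = 0.7555 across probe sets for GA3 with UCZ), so arrays were paired by number.

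Gene names came from the platform annotation, by which 1452 probe sets have 1 gene, 1 has several and 16102 have none. Of 1108 genes, 1060 matched a RefSeq table (Zm-B73-REFERENCE-NAM-5.0), which served for names alone. A gene is given by its brightest probe set, and 22 and 19 of the 812 genes use probe sets marked s or x, which can match related genes. Sequences of the genes are not used here.

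The members and the lists were chosen with earlier results of these data known, and the lists were completed by name after values were seen. Named by rule were the 10 largest called rises and falls going the same way in both pairs, up to 3 called members with the smallest p of each list, and the measured gibberellin genes. Other members are named to describe their list and were chosen after their values were seen. Steps were tested on simulated data, where the prior of the paired fit varied widely between draws and was mostly estimated too high, so that its calls mostly held more false ones than the threshold names. Figures used matplotlib 3.10.9 and Python 3.11.15. Alternatives were no block, all 6 arrays, 1 or 64 added before log2, no filter or the brightest 40%, median centring, quantile normalization, poly-A control scaling, other variance priors, and each array left out.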

Additional observations from a re-analysis of the deposited data

How the results depend on the processing

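The count of called probe sets stayed within 1.5 times of 3954 under every alternative except 3 kinds. The 102 genes named by rule kept their direction wherever they were tested, except after poly-A scaling. Without the replicate block 1143 probe sets were called, 611 higher and 532 lower in GA3, and 65 of the 102 genes kept their call. With 1 array left out at a time (fit without the block, the lone array assumed to vary like the other group), 806 to 973 were called, 445 to 563 higher and 361 to 471 lower, and 51 to 64 genes kept their call. After scaling to the poly-A controls 7482 were called, 7452 higher and 30 lower, and 15 of the 102 genes turned from lower to higher in GA3, none of them called there: mbd111 (0.53), RPL19 (0.41), rpp2a-3 (0.41), tif1 (0.42), elfa2 (0.56), elfa3 (0.57), oy1 (0.06), por (0.13), prpo1 (0.15), mdh6 (0.10), lpa2 (0.27), bx1 (0.21), ERF1 (0.28), ciszog1 (0.30) and aoc1 (0.44). The controls differed by −0.623 and −1.003 between GA3 and UCZ, and the cause was not tested. Among the settings with a block and the deposited, median or quantile scaling, between 92 and 102 of the genes kept their call, 81 of 81 with the brightest 40%. The fit without a filter tested 17555 probe sets and called 3380 (19.3%). Controls added at hybridization differed by −0.047 and −0.404. Genes near the background signal have differences set partly by the number added before log2.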
